A study of Sus scrofa with 4 samples.

Results

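The transcription factors GATA2, GATA3, TFAP2A, TFAP2C, TEAD4, ELF5 and EOMES were followed in pig (Sus scrofa) blastocysts. The embryos came either from oocytes kept at high levels of NEFAs, free (non-esterified) fatty acids such as fat tissue releases during energy shortage, or from control oocytes. All probes carrying 1 of these 7 gene symbols in the platform's annotation were taken, which gave 10 of the array's 43794 probes: 2 each for TEAD4, TFAP2C and ELF5, and 1 for each of the other genes. Of the 10 probes, 7 were kept for testing, out of 17145 kept in all, and they cover 6 of the 7 genes. To be kept, a probe had to lie above the limit that the array's negative control spots set for that dye, in at least 3 of the 4 pools of a condition.

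RNA of pooled blastocysts was amplified, labelled with the dye Cy3 or Cy5 and hybridised to 4 two-colour arrays, each carrying a NEFA pool and a control pool. The NEFA pool was in Cy3 on arrays 1 and 2 and in Cy5 on arrays 3 and 4. The design names 4 pools of 10 blastocysts from days 7 and 8, without saying whether each condition had 4 pools or whether the days were mixed within a pool. The sources used here give no breed, NEFA composition or concentration, so the exposed group is known only as high NEFA and the control group only as control. As the labels do not say that the pools are separate cultures, p-values cover the spread between these arrays only, which may be partly technical. A pool is whole embryos: fewer trophectoderm cells and less RNA per cell cannot be told apart.

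The trophectoderm is the outer epithelium of the blastocyst, which encloses the inner cell mass and later forms the embryonic part of the placenta. In the mouse, TEAD4 with its cofactor YAP1 opens the trophectoderm programme in outer cells, where Hippo signalling is low. GATA2 and GATA3 are zinc finger factors, TFAP2A and TFAP2C belong to the AP-2 family, ELF5 is an ETS factor and EOMES a T-box factor, and in the mouse ELF5 and EOMES maintain trophoblast stem cells. The study compared the conditions to ask whether the oocyte's exposure is still visible in transcripts of the embryo.

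Between 38.3% and 49.0% of all probes exceeded the limit in a channel. Across the 17073 kept probes with no spot flagged by the scanner software, the log2 ratio of NEFA over control correlated between arrays at r = -0.54 (arrays 2 and 4) to 0.16 (arrays 3 and 4). Taken as Cy5 over Cy3, the ratio correlated at r = 0.54 for arrays 2 and 4 and 0.29 for arrays 1 and 3. Both pairs have opposite labelled orientations. The other pairs were then at -0.24 to 0.16. The cause was not tested. These correlations are over probes, which are not independent replicates. None of the 10 member probes was flagged or saturated on any array.

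By signal, the 10 probes fell into a bright set of 3, an intermediate probe and a set of 6 near or below the limit. Signals of different probes also carry each probe's own affinity, so this order is one of signals and not of transcripts. TFAP2C probe 1 stood at the 99.6th percentile of all probes of its array and dye (median of 8 pools), TEAD4 probe 1 at the 95.6th and GATA2 at the 95.2nd. These 3 exceeded the limit in all 8 pools, as 25.0% of all probes did. Neighbours in the order often did not differ beyond their spread: relative to the limit, TEAD4 probe 1 was above GATA2 in 5 of 8 pools.

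TFAP2C probe 2 followed at the 84.7th percentile, above the limit in 7 of 8 pools. TFAP2A at the 71.1st percentile and GATA3 at the 65.4th lay close to the limit, with 7 and 5 of 8 pools above it. TFAP2A was above GATA3 in 5 of 8 pools. Below them came ELF5 probe 1 at the 48.9th percentile with 3 of 8 pools above the limit, and TEAD4 probe 2 at the 42.9th with 2 of 8. ELF5 probe 2 at the 30.7th percentile and EOMES at the 7.70th exceeded the limit in 0 of 8 pools, so both were not well above background. That 7 of 10 member probes were kept compares with 39.1% of all probes.

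**Figure D1:**
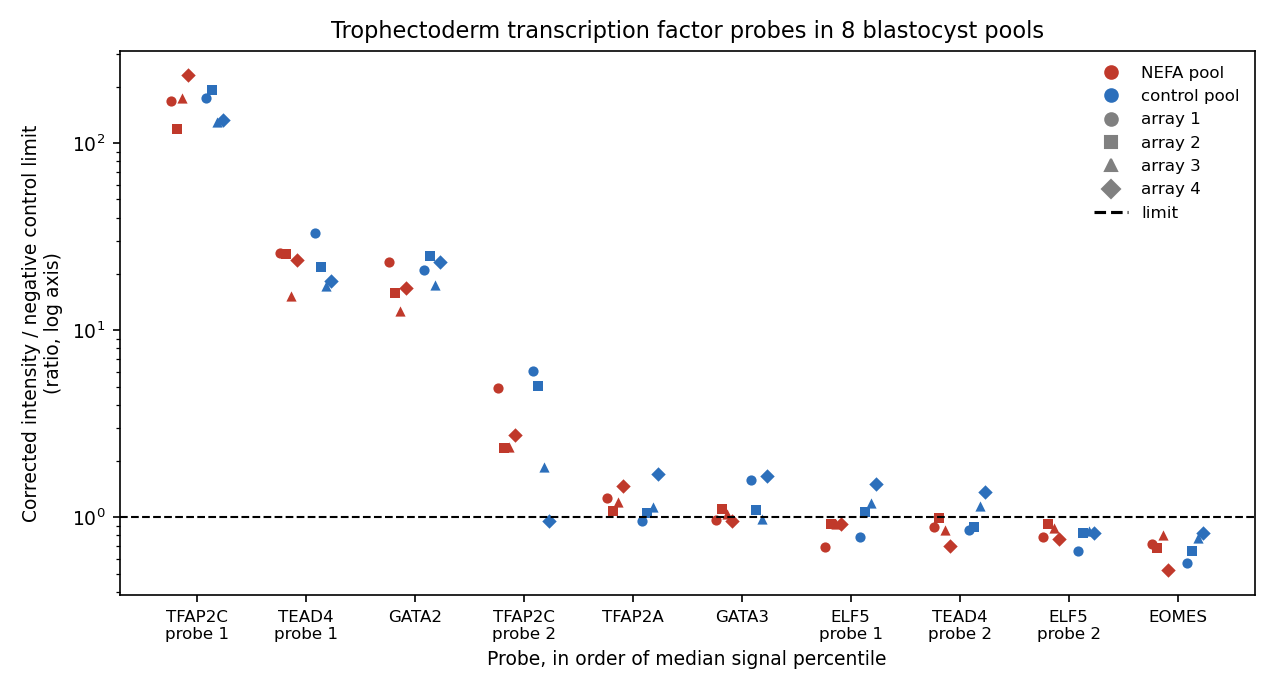
Background-corrected intensity of each of the 10 probes divided by the negative control limit of its array and dye (log axis), with 1 point per pool, red for NEFA and blue for control, the marker giving the array and the dashed line the limit. TFAP2C probe 1 sits at 119 to 229.7 times the limit, TEAD4 probe 1 and GATA2 at 12.7 to 32.9 times, and the dim probes cluster around 1.

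No member differed detectably between NEFA and control pools. The limma fit, with a dye term and a Benjamini-Hochberg adjustment over all kept probes, called 0 of the 7 kept member probes at an adjusted p of 0.05, where it called 0% of the 17145 probes tested. At an unadjusted p under 0.05 it passed 1 member probe, ELF5 probe 1, which was kept through its control pools alone, against 1.54% of all probes (264), or 0.945% in the same direction, lower in NEFA. Of the 7 kept probes 4 had a mean above 0 and 3 a mean below 0, and 1 had the same direction on all 4 arrays, beside 7.85% of kept probes without flagged spots. Those below 0 include GATA3 and ELF5 probe 1, kept through control pools alone, so these counts do not stand as support for a difference. For none of the 10 probes did the NEFA and control pools separate without overlap, which 1.17% of the kept probes did. The limma adjusted p was 1.00 after rounding for each of the 7 kept probes. In what follows a ratio is log2 of NEFA over control, a mean is given ± SE from this fit with n = 4 arrays, and pool signals are normalised log2 intensities in the order of arrays 1 to 4.

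**Figure D2:**
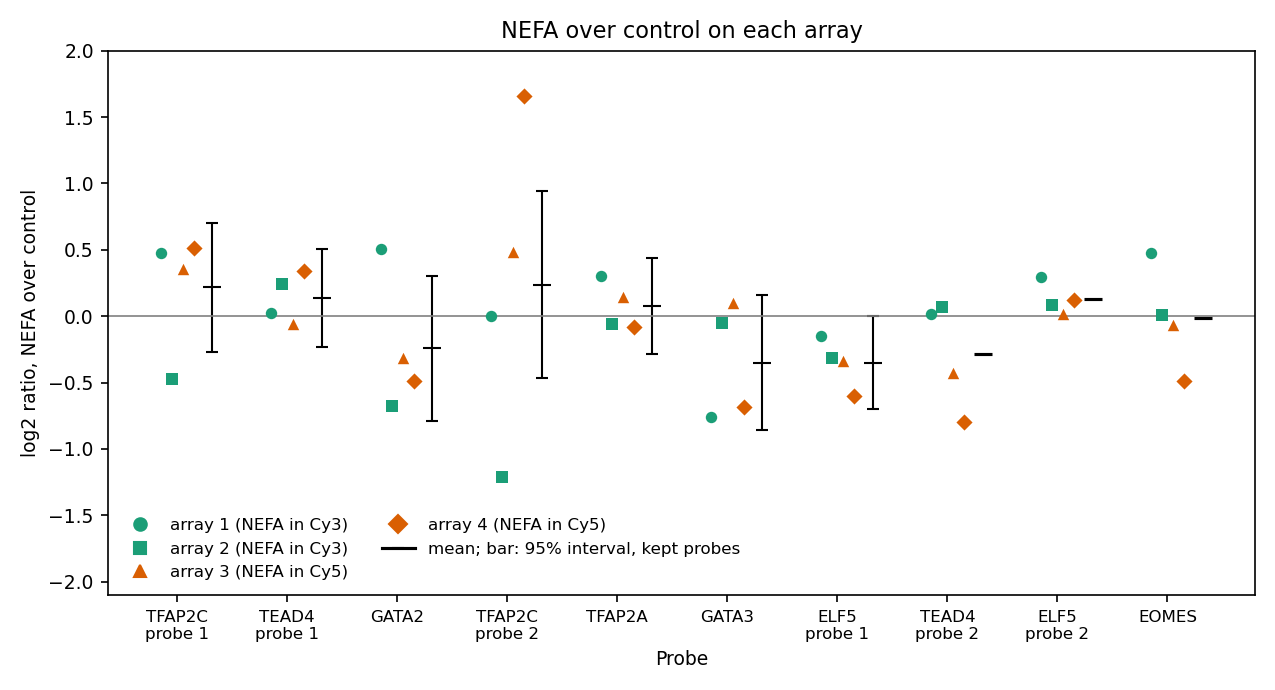
Log2 ratio of NEFA over control on each of the 4 arrays for the 10 probes, green where NEFA was in Cy3 and orange where it was in Cy5, with the mean at the right of each set and its 95% interval from limma for the 7 kept probes. Only ELF5 probe 1 among the kept probes has all 4 points on the same side of 0, and TFAP2C probe 2 has the widest range, -1.21 to 1.66.

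TEAD4, the factor that in the mouse acts first in the trophectoderm programme, was bright through probe 1, with values close to 0. Its signal was 12.78, 12.94, 12.46 and 12.48 in the NEFA pools and 12.76, 12.70, 12.52 and 12.14 in the control pools, so the ranges overlapped. The ratios were 0.03, 0.24, -0.06 and 0.34, with a mean of 0.14 ± 0.15 and a 95% interval of 0.852-fold to 1.42-fold. This was the narrowest spread among the bright probes, with an SD over arrays of 0.18. The mean was 0.04 without array 4, 0.08 without array 2 and 0.24 without array 3, and 0.04 with median centring in place of loess. TEAD4 probe 2 gave a different reading: it exceeded the limit in no NEFA pool and in 2 control pools, those of arrays 3 and 4. Its ratios were 0.02, 0.07, -0.43 and -0.80, which parted by dye orientation. Its mean signal was 8.21 in control and 7.92 in NEFA, and no fold is given, as 6 of 8 pools were under the limit and the probe was not kept.

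GATA2, which acts in trophectoderm and later trophoblast, was among the bright probes and was lower in NEFA on 3 of 4 arrays. Its signal was 12.62, 12.21, 12.22 and 11.99 in the NEFA pools and 12.12, 12.89, 12.53 and 12.48 in the control pools. Array 1 stood against the others, with its NEFA pool the brightest of the NEFA pools and its control pool the dimmest of the controls. The ratios were 0.50, -0.67, -0.31 and -0.49, and the mean was -0.24 ± 0.22, with an interval from 0.578-fold to 1.24-fold. Single arrays decided the value: it was -0.54 without array 1 and 0.05 without array 2. The local background around this spot was 180 to 336 in Cy3 and 52 to 91 in Cy5, beside raw intensities of 3428 to 7797, and with no background correction the mean was -0.22.

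GATA3, a regulator that acts beside CDX2 in mouse trophectoderm, lay at the limit and had the second most negative mean of the kept probes. Its signal was 8.00, 8.28, 8.24 and 8.09 in the NEFA pools and 8.76, 8.33, 8.14 and 8.77 in the control pools. Control pools of arrays 1 and 4 were the high ones, and the remaining control pools lay within or close to the NEFA range. The ratios were -0.76, -0.05, 0.10 and -0.68, and the mean was -0.35 ± 0.21, with an interval from 0.552-fold to 1.12-fold and an unadjusted limma p of 0.142. These large ratios, on arrays 1 and 4, came from opposite dye orientations. Without array 1 the mean was -0.17 and without array 4 -0.15, while it was -0.53 without array 2 and -0.54 without array 3. Above the limit were 2 NEFA pools and 3 control pools, so only the control pools brought GATA3 past the filter, as with ELF5 probe 1. Neither the mean nor the p of GATA3 stands as support for a difference. Probes kept through 1 condition alone made up 20.3% of all kept probes.

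TFAP2C, an AP-2 factor needed for the trophoblast lineage in the mouse, gave the strongest signal of the members. Raw intensities of TFAP2C probe 1 ran from 31747 to 58872, below the scanner's ceiling of 65535. The normalised signal was 15.65, 15.31, 15.71 and 15.69 in the NEFA pools and 15.17, 15.78, 15.35 and 15.18 in the control pools. Array 2 was the exception, with the dimmest NEFA pool and the brightest control pool. The ratios were 0.48, -0.48, 0.36 and 0.51, giving a mean of 0.22 ± 0.20 and an interval from 0.831-fold to 1.63-fold. It was 0.46 without array 2 and -0.02 without array 1.

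TFAP2C probe 2 had the same mean within 0.02 but a much wider spread. Its signal was 10.37, 9.45, 9.67 and 9.58 in the NEFA pools and 10.37, 10.66, 9.18 and 7.92 in the control pools. The control pools of arrays 1 and 2, both in Cy5, were high and those of arrays 3 and 4, both in Cy3, were low. The ratios were 0.00, -1.21, 0.49 and 1.66, with a mean of 0.24 ± 0.28 and an SD over arrays of 1.19. The dye coefficient of this probe, the log2 preference for Cy5 over Cy3, was 0.84 ± 0.28, against -0.33 to 0.22 for the other member probes. Its residual spread exceeded that of 93.0% of kept probes.

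The array 4 ratio of TFAP2C probe 2 moved with the background correction. In the control pool of array 4 the raw intensity was 503 and the local background 239, which left a corrected intensity of 226, under the limit of 237.0. Without that correction the ratios were -0.03, -0.95, 0.52 and 0.67, with a mean of 0.05, and array 4 still had the highest of them. Leaving out array 4 gave a mean of -0.06 and leaving out array 1 gave -0.07, whereas it was 0.54 without array 2 and 0.53 when array 3 was left out. On arrays 2, 3 and 4 both TFAP2C probes lay on the same side of 0.

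TFAP2A, the AP-2 family member expressed in trophectoderm and in surface ectoderm, showed little difference near the limit. Its signal was 8.39, 8.23, 8.53 and 8.69 in the NEFA pools and 8.09, 8.29, 8.39 and 8.76 in the control pools. The ranges overlapped almost wholly, and the control pool of array 1 was the only pool under the limit. The ratios were 0.30, -0.06, 0.14 and -0.08, with a mean of 0.08 ± 0.15 and an interval from 0.820-fold to 1.36-fold. The mean became -0.01 when array 1 was left out, 0.02 when array 3 was, 0.13 when array 4 was and 0.17 when array 2 was.

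ELF5 probe 1 had the smallest p of the members. In the mouse the ELF5 promoter is unmethylated in trophoblast and methylated in embryonic stem cells. Its signal was 7.72, 7.98, 8.10 and 8.04 in the NEFA pools and 7.87, 8.29, 8.43 and 8.64 in the control pools. All 4 NEFA pools and the control pool of array 1 were under the limit, and the control pools of arrays 2, 3 and 4 exceeded it by 1.07 to 1.52 times. The ratios were -0.15, -0.31, -0.34 and -0.60, lower on 4 of 4 arrays, as were 4.30% of kept probes without flagged spots. The fitted mean was -0.35 ± 0.14, with an unadjusted limma p of 0.0492 and an adjusted p of 1.00 after rounding. The probe passed the filter only through the condition in which it was higher, so neither the fitted mean nor this p stands as support for a difference. As 0 of 4 NEFA pools were above the limit, the fold is given as a bound with no interval. For the bound, the NEFA pool of each array was set to the lowest signal above the limit, or to its own signal where that was higher, which gave a NEFA mean of 8.07 in place of the measured 7.96. Against the control mean of 8.31 this gave a bound of 1.18-fold for ELF5 probe 1, higher in control. That control mean includes the pool of array 1, itself under the limit, so the bound is not strict. It rests on the same values that passed the filter and does not stand as support for a difference.

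Under the labelled orientations, other processing changed whether ELF5 probe 1 was kept more than it changed its ratios. Under a limit of the mean plus 3 SD, and with no background correction, it was above the limit in 2 of 8 pools and was not kept, while its ratios without background correction were -0.18, -0.33, -0.45 and -0.49. The fitted mean was -0.43 with plain background subtraction (unadjusted limma p of 0.0275) and -0.40 with an offset of 16 (0.0424), and the unadjusted p was 0.0223 with no filter on dim probes. It was -0.34 with median centring (0.0604), and leaving out each array in turn gave means of -0.42 to -0.28, with unadjusted p of 0.0744 to 0.257. The limma adjusted p ranged from 0.750 to 1.00 over these fits. ELF5 probe 2 was under the limit in 8 of 8 pools, at 0.660 to 0.925 of it. Its ratios were 0.30, 0.08, 0.02 and 0.12, opposite in sign to those of probe 1 on each array. With both conditions below the limit ELF5 probe 2 gives no fold, and the 2 probes do not share a direction.

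EOMES, a T-box factor of trophoblast and of primitive streak in the mouse, was not well above background in any pool. Raw intensities were 342, 195, 175 and 139 in the NEFA pools and 163, 187, 217 and 253 in the control pools, or 0.522 to 0.820 of the limit after correction. The higher raw value on each array was in Cy3, as was the higher median raw intensity of each array (289 to 436 in Cy3, 220 to 289 in Cy5). The ratios were 0.48, 0.01, -0.06 and -0.49, with a mean of -0.02, and no fold is given as both conditions were below the limit.

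**Figure D3:**
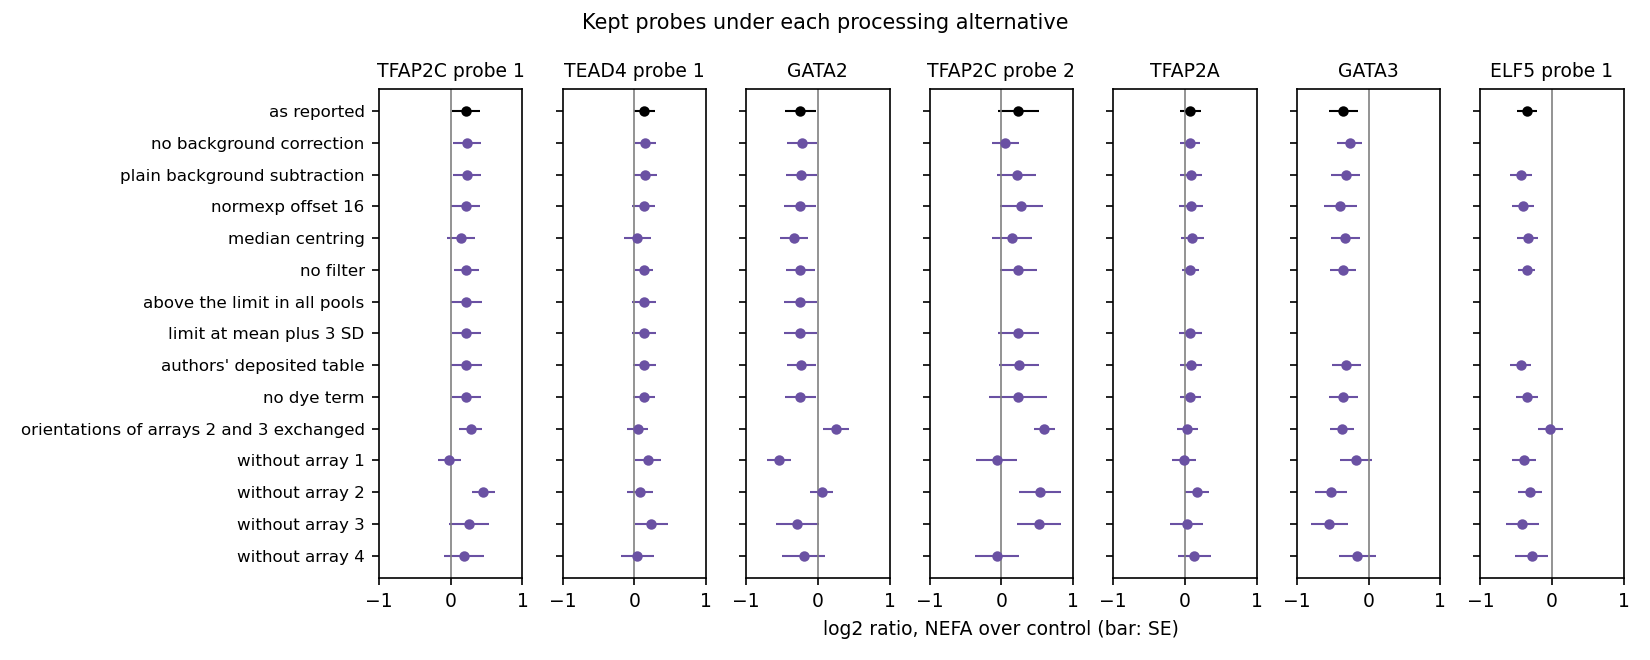
Log2 ratio of NEFA over control (horizontal axis, bars are SE) for each of the 7 kept probes under the reported processing (black) and each alternative (purple), with a gap where a probe was not kept. GATA2 lies at -0.24 as reported and at 0.25 with the orientations of arrays 2 and 3 exchanged. It lies between -0.54 and 0.05 when an array is left out. GATA3 stays below 0 in every setting in which it was kept. As only its control pools brought GATA3 past the reported filter, that sign does not stand as support for a difference.

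These directions depend on the dye orientations given in the labels. Exchanging those of arrays 2 and 3, an alternative known from an earlier look at these data to call 1193 of 17145 probes, moved GATA2 to 0.25, ELF5 probe 1 to -0.02, TEAD4 probe 1 to 0.05 and TFAP2A to 0.03. GATA3 was at -0.37 and TFAP2C probe 1 at 0.28 with that exchange. TFAP2C probe 2 then stood at 0.60 with a limma adjusted p of 0.0389, and was the only member past the threshold. Exchanging arrays 1 and 4 instead would turn every one of these signs, so that p does not test an effect of NEFA. In the authors' deposited table of processed values, turned by the labelled dyes, the means were -0.44 for ELF5 probe 1 (unadjusted limma p of 0.0266, adjusted p of 1.00), -0.31 for GATA3, -0.23 for GATA2, 0.22 for TFAP2C probe 1, 0.24 for TFAP2C probe 2, 0.14 for TEAD4 probe 1 and 0.08 for TFAP2A.

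For each kept member probe, the named probes with the most similar pattern over the 8 pools were sought by the root mean square difference of centred log2 signals. The nearest to GATA2 were MTUS1 (0.10), PRKAG2 (0.12) and UBR2 (0.13), and to GATA3 CHPT1 (0.097), SAT2 (0.11) and TCF12 (0.12). Nearest to TEAD4 probe 1 were ARL14 (0.072), MTCH2 (0.085) and MOCS3 (0.11), and to ELF5 probe 1 FMR1 (0.077), FAM136A (0.097) and LRRC59 (0.11). TFAP2A lay closest to CXCL14 (0.099), PTBP1 (0.10) and ORAOV1 (0.11), and TFAP2C probe 1 to CETN3 (0.087), LEO1 (0.092) and PMM1 (0.098). TFAP2C probe 2 had no close match, with TMEM43 at 0.43, KIAA2018 at 0.49 and SLC4A4 at 0.49. No member was among the nearest of another. With 3 probes named out of 5674 or 5675 compared, this does not tell whether the members vary together. Probes of the same gene were left out of the search, so the TFAP2C probes could not match each other. The median difference over the named kept probes was 0.32 to 0.38 for the other members and 0.86 for TFAP2C probe 2, and pools hybridised together share an array.

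Relatives of the members in the same families were read alongside them. Of 16 paralogues 10 had a probe and 5 were measured, 3 with means above and 2 below 0, with 0 past the adjusted threshold and a median of 0.01, which was below 0 under 9 of 14 alternatives. GATA6, the GATA factor of primitive endoderm, was bright at the 94.1st percentile with 8 of 8 pools above the limit and a mean of 0.10 ± 0.18. TBR1, the T-box relative of EOMES known from the brain, was above the limit in all 8 pools with ratios of -0.16, -0.25, -0.04 and -0.42 and a mean of -0.22 ± 0.14. TFAP2D was at -0.15 ± 0.14, and the ETS factors ELF1 and ELF3 were at 0.03 ± 0.14 and 0.01 ± 0.16. TFAP2D and ELF3 were kept through control pools alone and ELF1 through NEFA pools alone. Their means, and the counts and median that include them, do not stand as support for a difference. GATA5, TEAD1, ELF2, ELF4 and TBX21 had probes that were not kept, with at most 2 of 8 pools above the limit.

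**Figure D4:**
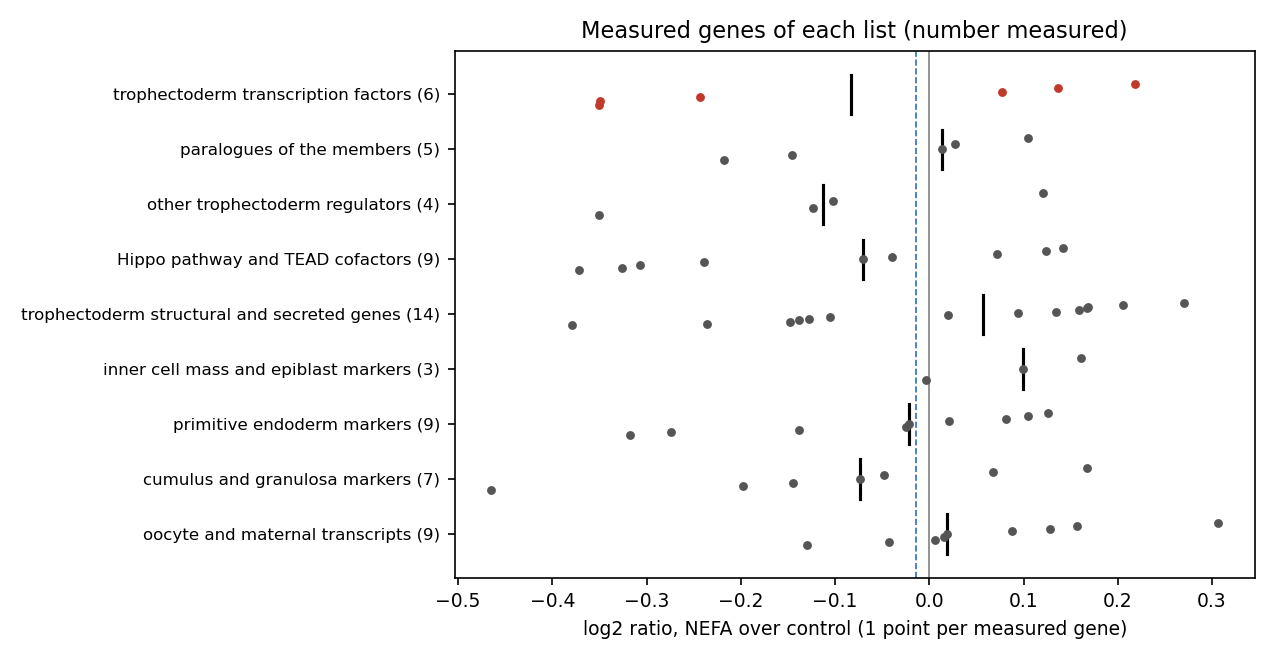
Log2 ratio of NEFA over control for each measured gene of each list (1 point per gene, number measured in brackets), with the list median as a black bar and the median of all 4686 measured genes as a dashed blue line. The 6 measured trophectoderm factors (red) lie at -0.35 to 0.22 with a median of -0.08, beside -0.01 for all measured genes. That median was above 0 under 5 of 14 alternatives. It includes GATA3 and ELF5, kept through control pools alone, so it does not stand as support for a difference.

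The wider trophectoderm programme and the Hippo pathway were measured in part. The 6 measured factors, each represented by its brightest kept probe, had 3 means on either side of 0, and their median was lowest on array 4 (-0.28) and highest on array 1 (0.16). The sign of their median of -0.08 depended on the setting. It was 0.07 without array 2, 0.07 with no background correction (5 genes), 0.11 at a limit of the mean plus 3 SD (4 genes), 0.14 over the 3 genes above the limit in all pools. Exchanging arrays 2 and 3 made it 0.04. GATA3 and ELF5, both below 0, were kept through control pools alone. Neither the count on either side of 0 nor the median stands as support for a difference. Among 25 other trophectoderm regulators 18 had a probe and 4 were measured, with 1 mean above and 3 below 0. They were the homeobox factor MSX2 at -0.35 ± 0.21, the inhibitor of differentiation ID2 at -0.12 ± 0.15, CITED2 at -0.10 ± 0.14 and RBPJ, the effector of Notch signalling, at 0.12 ± 0.16. CITED2 and RBPJ were kept through NEFA pools alone. Their means, and the counts that include them, do not stand as support for a difference. Factors such as KLF4, DLX3, ETS2, GRHL2 and SOX21 were above the limit in 0 of 8 pools.

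Of 37 symbols of the Hippo pathway and TEAD cofactors, 20 had a probe and 9 were measured, 3 above and 6 below 0, with 0 past either threshold and a median of -0.07. FRMD6 was kept through NEFA pools alone and SAV1 through control pools alone. The counts and median that include them do not stand as support for a difference. TAOK3, a kinase upstream in the pathway, was at -0.33 ± 0.15 and lower on 4 of 4 arrays, as were 4.30% of kept probes without flagged spots. VGLL3, a cofactor that binds TEAD factors, was at -0.31 ± 0.16. AMOT, which holds YAP1 outside the nucleus in inner cells of the mouse embryo, was at -0.24 ± 0.14 with ratios of -0.11, -0.27, -0.21 and -0.36. The TEAD target CYR61 was bright, at the 97.9th percentile, with ratios of 0.13, 1.00, -0.57 and -0.07. CTGF and ANKRD1, listed with it, were not kept. CTGF was above the limit in 1 NEFA and 1 control pool. ANKRD1 was above it in 2 NEFA and 2 control pools, with ratios of 0.11, 0.44, -1.08 and -1.38. YAP1 itself was above the limit in 0 of 8 pools.

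The structural and secreted genes of trophectoderm, the layer's working products, were better covered, with 14 of 39 measured, 8 above and 6 below 0 and a median of 0.06. Their median was lowest on array 2 (-0.15) and highest on array 4 (0.38), and without array 4 it was -0.14. DSP was kept through NEFA pools alone and FGFR2 through control pools alone. The counts and median that include them do not stand as support for a difference. At an unadjusted p under 0.05 the list held 1 gene, AQP11, at -0.38 ± 0.14 and lower on 4 of 4 arrays, where 1.45% of all measured genes passed that p and 4.30% of kept probes without flagged spots were lower on 4 of 4 arrays. AQP3, a water and glycerol channel of the blastocyst, was very bright at the 99.5th percentile and stood at -0.24 ± 0.17, while the tight junction protein CLDN7 was at 0.27 ± 0.19 with ratios from -0.59 on array 1 to 1.56 on array 4. KRT19 was above the limit in 3 of 8 pools and not kept.

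Lists marking the other cells of the embryo and its surroundings did not pass the adjusted threshold either, with 0 called in each list and 0 past the unadjusted p of 0.05. Inner cell mass and epiblast markers had 3 of 23 genes measured, 2 above 0, with IL6ST at 0.16 ± 0.14, GDF3 at 0.10 ± 0.15 and UTF1 at -0.00297 ± 0.14. Primitive endoderm markers had 9 of 24 measured, 4 above 0, with APOA1 at -0.32 ± 0.19, LAMC1 at 0.13 ± 0.13 and DAB2 at -0.14 ± 0.15. Cumulus and granulosa markers had 7 of 23 measured, 2 above 0, with FST at -0.46 ± 0.23, NR5A1, under the limit in all 4 NEFA pools, at a fitted -0.20 ± 0.15 and GJA1 at -0.14 ± 0.13. Oocyte transcripts had 9 of 23 measured, 7 above 0, with GDF9 at 0.31 ± 0.15, FIGLA at 0.16 ± 0.14 and SYCP3 at -0.13 ± 0.15. Of the genes named here, IL6ST and UTF1 were kept through NEFA pools alone, and APOA1, NR5A1 and GJA1 through control pools alone. Their means, and the counts above 0 that include such genes, do not stand as support for a difference. Per array, the medians ran from 0.03 to 0.16 for the inner cell mass list and from -0.32 to 0.33 for the primitive endoderm list, and from -0.18 to -0.03 for the cumulus list and -0.09 to 0.31 for the oocyte list. The part of these cells in the members' values was not tested. The lists share genes. DAB2 and PTGS2, counted here under primitive endoderm and cumulus, are also among the structural and secreted genes of trophectoderm. GATA6 is also among the paralogues. SOX2 was above the limit in 2 of 8 pools and not kept, and the named probes used here include none for POU5F1, NANOG or CDX2.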

How the data were processed

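The members, gene lists and alternatives were chosen with earlier results of these data known. Per the file headers, the deposited scanner output gives each spot's median intensity and that of the surrounding background, in Cy3 (532 nm) and in Cy5 (635 nm), before any normalisation. The authors' deposited table holds log2 ratios of Cy5 over Cy3: against the scanner values after background subtraction and loess its columns correlated at r = 0.963 to 0.990, with medians of -0.023 to -0.020, and its centring remains unknown. Limma appears in the submitters' processing notes without a version. The sources used here do not name the scanner or image software.

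Each array had 45220 spots, 1426 of them controls. Intensities were corrected with normexp (offset 50) and normalised by loess within each array, control spots at weight 0. Between 35 and 75 flagged spots per array were left out. The limit was set at 2 SD over the mean of the corrected intensities of 153 negative control spots, per array and dye. Pool signals are per channel after Aquantile normalisation, and percentiles are among the 43794 probes of the same channel. The fit used lmFit and eBayes of limma (3.58.1, R 4.3.3) with a dye term and a NEFA term, two-sided, on 2 residual degrees of freedom plus 3.67 from the prior. The fit was tested on simulated data.

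Named were every member probe, every measured paralogue, the 3 measured genes of smallest p in each other list and the 3 nearest patterns of each kept member probe. Others, such as CITED2, CYR61, YAP1 and KRT19, were chosen after their values were seen. Symbols are those of the platform's annotation and may be outdated. All 7 members were found in the pig gene table of assembly Sscrofa11.1. Its coordinates are not given, since the array's own build is unstated. The number of arrays limits the precision.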

Additional observations from a re-analysis of the deposited data

Results flagged for a closer look

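Among 30 sets of 4 values examined for the members (ratios, NEFA signals and control signals of 10 probes), Dixon's test picked out 2, both of TFAP2C probe 1 on array 2. Chance picks out about 1 in 20 such sets. The ratio of NEFA over control on array 2 was -0.48 against 0.36 to 0.51 on the other arrays. The signal of the NEFA pool on that array was 15.31 against 15.65 to 15.71 in the other NEFA pools. These values come from the same spot, so they are not independent of each other.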

How the results depend on the processing

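The count of called probes was 0 with every alternative except plain background subtraction (1), the authors' deposited table (2) and the exchange of the orientations of arrays 2 and 3 (1193). At an unadjusted p under 0.05 the limma fit counted 264 of 17145 probes as reported. Over the alternatives that keep the labelled orientations it counted 100 to 865. The 865 came from the fit with no filter, which tested 43794 probes. Of the recomputed member values 84 kept their sign and side of the threshold, and 18 list medians moved by more than their SD over arrays while 121 did not. The median of the measured factors ranged from -0.14 to 0.14 over 14 alternatives, 5 of them with the opposite sign. Member values of opposite sign were GATA2 with the exchange (0.25), and, with 1 array left out, GATA2 (range -0.54 to 0.051), TFAP2A (-0.013 to 0.17), TFAP2C probe 1 (-0.020 to 0.46) and TFAP2C probe 2 (-0.068 to 0.54). TFAP2C probe 2 passed the threshold with the exchange, at 0.60. GATA3 was above the limit in 3 of 8 pools at the mean plus 3 SD, against 5 as reported. The causes were not tested. Leaving out an array leaves 1 residual degree of freedom. The fit is already paired, as each ratio sets a NEFA pool against the control pool of its own array, so a further replicate block has nothing to add. Dim probes near the limit have ratios pulled toward 0 by the offset.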
